A study of Mus musculus with 4 samples.

Results

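Epidermal and hair follicle lineage transcription factors were examined in sorted cells of mouse tail epidermis, labelled as basal. The cells came from mice with active Hedgehog signalling in which Sox9 was either conditionally deleted or kept. The set was a fixed list of 50 genes: p63, the Krüppel-like (KLF), Grainyhead-like, OVOL, AP-2, C/EBP, ETS, GATA, RUNX, NFAT, nuclear factor I, SNAI, TWIST, MAF and BCL11 factors of skin, with Zfp750, Prdm1, Bnc1, the nuclear receptor genes and cofactors Vdr, Rora and Hr, and the T-box factors Tbx1 and Tbx3. Of these, 49 were represented, by 152 of the 45037 probe sets that were not array controls, and were tested among 18193 genes. Runx2 was not analysed here. Each gene was read at its brightest probe set, averaged over the 4 arrays, and 34 of the 49 members had more than 1 probe set, up to 9.

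There were 4 Affymetrix 3' expression arrays. The 2 Sox9cKO arrays came from K14CreER:SmoM2:Sox9cKO mice, in which Sox9 was conditionally deleted, and the 2 SmoM2 arrays from K14CreER:SmoM2 mice with Sox9 present. SmoM2 is a constitutively active form of Smoothened, the transducer of Hedgehog signals, and every sample carried it, so no sample without the oncogene enters the comparison. K14CreER, a Cre recombinase switched on by tamoxifen, is driven by the keratin 14 promoter, which is active in basal keratinocytes. Mice of both genotypes received 2.5 mg of tamoxifen daily for 10 days and were killed 9 weeks after the first dose, and cells with surface integrin alpha 6 and without CD34 were sorted from tail epidermis, labelled as basal interfollicular cells. The labels used here do not give ages or say whether replicates were separate animals, so p-values reflect only how far these samples differ, which may be technical. Precision is limited by the number of arrays, 2 per genotype.

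Lineage transcription factors hold skin epithelium in its different states. p63 maintains the basal layer, while KLF, Grainyhead-like, OVOL, C/EBP and epithelial ETS factors and Prdm1 take part in the passage to the barrier-forming upper layers. In the hair follicle, Runx1, Nfatc1 and Tbx1 act in stem cells of the bulge, Gata3 acts in the inner root sheath, and Vdr and Hr are needed for the postnatal hair cycle.

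The deleted gene was read at each of its probe sets. Sox9 measured 6.75 and 5.70 (log2 signal) in the Sox9cKO arrays, against 10.21 and 10.02 in the SmoM2 arrays at 1 probe set, a log2 change of -3.89 (adjusted p = 0.00171 over all probe sets, limma). Its brightest probe set read 8.06 and 8.48 in Sox9cKO and 8.77 and 9.27 in SmoM2 (-0.75, adjusted p = 0.148), and the third was dim and not called. The position of these probes relative to the deleted part was not known. The labelled cell type was read from its markers. The 6 basal keratinocyte markers (Krt5, Krt14, Itga6, Itgb4, Col17a1 and Itgb1) averaged 11.03 and 11.18 in Sox9cKO and 11.41 and 11.81 in SmoM2, with 0 of 6 called by limma and 4 lower at an unadjusted p under 0.05, and Cd34 was dim in all arrays, at 3.95 and 3.75 in Sox9cKO and 4.14 and 4.15 in SmoM2. The lower quartile of all probe sets lay between 4.25 and 4.29. The suprabasal keratins Krt10 and Krt1 were bright too, with means of 13.36 and 12.70 in Sox9cKO and 12.96 and 12.42 in SmoM2. Krt5 had a mean of 13.30 in both genotypes. The markers thus do not show the sorted cells to be basal only.

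Conditional deletion of Sox9 went with lower signal of 11 of the 49 lineage factors and higher signal of 4. Calls were made at an adjusted p under 0.05 (limma, Benjamini-Hochberg over all 18193 genes). Together 15 members, 30.6%, were called, where 6.19% of all genes were. The list was chosen with earlier results of these data known, so this share and those below only describe it. No set test was run. In the direction of decrease the share was 22.4% of members against 3.53% of all genes, and in the direction of increase 8.2% against 2.66%. Members were mostly bright, and 41 of 49 lay at or above the median level of all genes. Among those 41, 14 were called (34.1%), where 7.9% of all genes at that level were. The median log2 change of the members was -0.10, against 0.02 for all genes, and the median size of the change, sign set aside, was 0.46 against 0.15. Arrays of the genotypes did not overlap at 2-fold or more for 12 members (24.5%), of which 10 were lower and 2 higher, against 4.16% of all genes.

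The 11 that fell were Prdm1, Elf5, Cebpd, Bnc1, Ehf, Runx1, Grhl3, Nfatc1, Tbx1, Klf7 and Vdr, with log2 changes of -0.72 to -3.28. Those that rose were Gata3, Gata6, Tfap2b and Grhl1, with log2 changes of 0.59 to 1.11. In sorted bulk RNA, fewer cells of a type and less RNA per cell cannot be told apart. The count was 7 without SmoM2 replicate 1, 5 without SmoM2 replicate 2, 12 without Sox9cKO replicate 1 and 9 without Sox9cKO replicate 2, while the share of all genes called moved to 3.18%, 2.94%, 4.82% and 4.95%. Prdm1, Elf5, Ehf and Gata3 were called with any 1 of the 4 arrays left out.

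**Figure D1:**
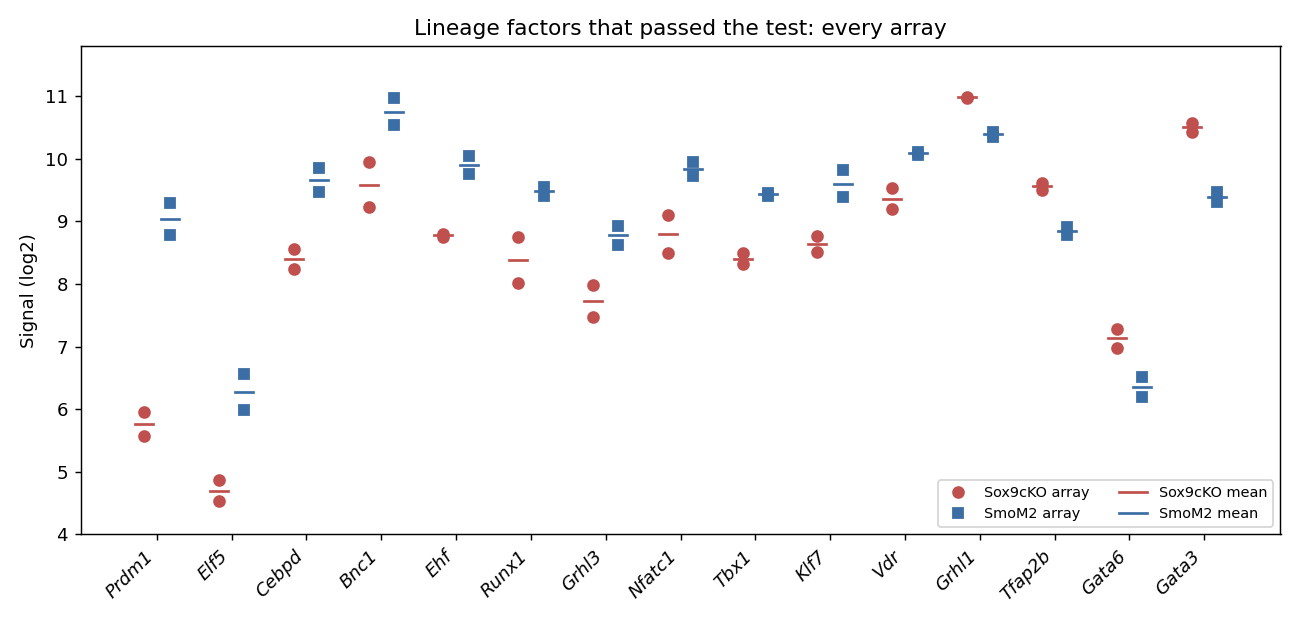
Log2 signal on every array for the 15 members that passed the test, ordered by log2 change, with Sox9cKO arrays as circles, SmoM2 arrays as squares and genotype means as lines. Arrays of the genotypes do not overlap for any of the 15, and the gap is widest for Prdm1, at 5.95 and 5.57 in Sox9cKO against 8.78 and 9.30 in SmoM2.

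Prdm1, which encodes the transcriptional repressor Blimp1 of late epidermal differentiation and of the sebaceous gland, fell most. It measured 5.95 and 5.57 (log2 signal) in the Sox9cKO arrays, against 8.78 and 9.30 in the SmoM2 arrays. Both Sox9cKO values lay a little above the median of all probe sets (5.45 to 5.47 on the arrays), and both SmoM2 values lay above the upper quartile (7.71 to 7.74). The log2 change was -3.28 (SE 0.21, 95% interval -3.78 to -2.77, adjusted p = 0.000446), a 9.69-fold difference. Leaving out 1 array at a time gave changes between -3.54 and -3.02. Of 8 sebocyte markers, 2 fell, Cidea with a log2 change of -2.29 and Plin2 with one of -1.18, and the list averaged 7.94 and 7.81 in Sox9cKO and 8.99 and 8.29 in SmoM2. The part of sebocytes in the Prdm1 difference was not tested.

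The Grainyhead-like factors moved in opposite directions. Grhl3, a factor needed for barrier formation in the mouse, fell, at 7.98 and 7.47 in Sox9cKO against 8.63 and 8.93 in SmoM2 (log2 change -1.05, SE 0.20, adjusted p = 0.0270). Without SmoM2 replicate 1, SmoM2 replicate 2 or Sox9cKO replicate 2 its adjusted p was 0.0799, 0.168 or 0.0850. Grhl1, a regulator of the desmosomal cadherin gene Dsg1a, rose, at 10.98 and 10.99 in Sox9cKO against 10.43 and 10.35 in SmoM2 (log2 change 0.59, SE 0.13, adjusted p = 0.0467). The arrays of each genotype stood close together for Grhl1, but its adjusted p was between 0.143 and 0.200 with any array left out and 0.0726 when adjusted over all probe sets. Dsg1a itself rose by 1.87 on the log2 scale (adjusted p = 0.00448). Grhl2, which maintains epithelial junctions, was not called, with a change of -0.30 (adjusted p = 0.355).

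Of the ETS factors that are restricted to epithelia, Elf5 and Ehf fell. Elf5, best known from glandular epithelium, measured 4.53 and 4.87 in Sox9cKO, against 6.56 and 5.98 in SmoM2. The Sox9cKO arrays thus stood just above the lower quartile of all probe sets, so the size of the change, -1.57 (SE 0.22, adjusted p = 0.00694), is not exact. Its other probe set changed by -0.02, and averaged over both the change was -0.79 (adjusted p = 0.0195). Ehf measured 8.75 and 8.80 in Sox9cKO and 9.76 and 10.05 in SmoM2, a log2 change of -1.13 (SE 0.15, adjusted p = 0.00597). Ehf had a further pair of called probe sets, at -1.10 and -0.98, and a dim one at -0.01. Elf3, the remaining epithelial ETS factor, was dim, with a change of -0.23 (adjusted p = 0.496).

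Ets1, an ETS factor of proliferating basal keratinocytes, separated the genotypes at 2-fold without passing the test. It measured 7.26 and 6.93 in Sox9cKO and 7.76 and 8.63 in SmoM2, where the replicates stood far apart (log2 change -1.10, SE 0.28, adjusted p = 0.0692). Its change was -1.54 without SmoM2 replicate 1 (adjusted p = 0.0223) and -0.67 without SmoM2 replicate 2 (adjusted p = 0.203), and it did not pass without either Sox9cKO array (adjusted p = 0.0898 and 0.220). The dimmest of its 4 probe sets was called, at 4.79 and 4.77 in Sox9cKO against 5.76 and 5.73 in SmoM2 (-0.96, adjusted p = 0.0118 over all probe sets). Ets1 is also an endothelial gene. The 5 endothelial markers averaged 4.34 and 4.43 in Sox9cKO and 4.40 and 4.42 in SmoM2, near the lower quartile. Of these markers, 0 of 5 were called by limma and 0 had an unadjusted p under 0.05. The part of endothelial cells in the Ets1 difference was not tested. Ets2 had a change of -0.03.

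Cebpd, 1 of 3 C/EBP factors measured, fell. It had 8.24 and 8.56 in Sox9cKO and 9.47 and 9.86 in SmoM2, a log2 change of -1.26 (SE 0.19, adjusted p = 0.00882, or 0.0659 without SmoM2 replicate 2). Its other probe set was dim and changed by -0.21, and averaged over both the change of Cebpd was -0.74 (adjusted p = 0.0324). Cebpa and Cebpb, which promote the commitment of basal keratinocytes to differentiate, were not called, at 0.18 and -0.26. Among other factors of the differentiating layers, Klf4, a factor of barrier acquisition, had a change of -0.47 (adjusted p = 0.258). Both its Sox9cKO arrays (11.63 and 11.99) lay below both SmoM2 arrays (12.09 and 12.47). The other Klf4 probe set changed by -0.72 (adjusted p = 0.0628 over all probe sets). Averaged over both, the change of Klf4 was -0.59 (adjusted p = 0.0889). Zfp750, a p63-dependent factor of differentiation known from human keratinocytes, changed by 0.30 (adjusted p = 0.409). The zinc finger genes Ovol1 and Ovol2 had changes of opposite sign, 0.44 (adjusted p = 0.244) and -0.56 (adjusted p = 0.0700), and neither passed.

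The RefSeq windows before the gene start (GRCm38.p6) are shown for the members called with any array left out, other than Ehf, since these calls depended on no single array. Elf5 had 2 windows, of which the one farther upstream is shown. Capitals mark a SOX core, searched on both strands as AACAAT, as ACAATG and as ACAAAG, of which the first and second can overlap.
Prdm1, chr10:44458749-44458998, minus strand: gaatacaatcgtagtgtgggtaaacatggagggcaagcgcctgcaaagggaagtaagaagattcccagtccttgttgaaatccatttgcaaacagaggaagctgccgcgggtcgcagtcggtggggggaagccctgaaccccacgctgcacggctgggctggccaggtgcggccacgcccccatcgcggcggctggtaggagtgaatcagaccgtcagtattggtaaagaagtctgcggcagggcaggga
Elf5, chr2:103411848-103412097, plus strand: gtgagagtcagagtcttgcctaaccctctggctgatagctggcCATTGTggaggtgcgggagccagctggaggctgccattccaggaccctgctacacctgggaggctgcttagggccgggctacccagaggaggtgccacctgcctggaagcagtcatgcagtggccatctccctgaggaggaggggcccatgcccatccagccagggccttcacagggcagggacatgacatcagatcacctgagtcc
Gata3, chr2:9878601-9878850, minus strand: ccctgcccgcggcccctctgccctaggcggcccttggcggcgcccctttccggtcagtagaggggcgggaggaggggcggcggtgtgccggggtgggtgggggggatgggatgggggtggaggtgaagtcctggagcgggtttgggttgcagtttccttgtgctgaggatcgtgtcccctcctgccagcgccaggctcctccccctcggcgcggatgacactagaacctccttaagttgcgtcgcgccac

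Among the windows shown, that of Elf5 held a match, ACAATG on the minus strand, whose first printed base lies 207 bases before the start, and its other window held 0 matches. Of the 15 windows of 250 bases available for called members (11 genes), 1 held a match to any of the 3 cores (6.7%), as did 7 of the 41 windows of all members (17.1%) and 29.6% of 32851 windows of all genes. A match is no binding site, and these arrays did not measure binding.

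Among p63, Bnc1 and the AP-2 factors, Bnc1 fell and Tfap2b rose. Trp63, which encodes p63, was nearly the same in both genotypes, at 12.40 and 12.66 in Sox9cKO and 12.21 and 12.62 in SmoM2 (log2 change 0.12, 95% interval -0.31 to 0.55, adjusted p = 0.822). Bnc1, a zinc finger gene of proliferating basal keratinocytes, had 9.95 and 9.22 in Sox9cKO and 10.53 and 10.96 in SmoM2. Adjusted over all probe sets, Bnc1 did not pass (adjusted p = 0.0677, limma). The change of -1.16 (SE 0.26, adjusted p = 0.0456) was lost under re-normalization (adjusted p = 0.0540), and the adjusted p was 0.101, 0.237 or 0.119 without SmoM2 replicate 1, SmoM2 replicate 2 or Sox9cKO replicate 2. Tfap2b, of the AP-2 family, had 9.50 and 9.61 in Sox9cKO and 8.91 and 8.78 in SmoM2 (log2 change 0.71, SE 0.14, adjusted p = 0.0274, and 0.0663 to 0.152 with any array left out). Its second probe set rose by 1.57, at 8.63 and 9.01 in Sox9cKO against 6.97 and 7.52 in SmoM2 (adjusted p = 0.0126 over all probe sets). Tfap2a and Tfap2c, the AP-2 genes best known from epidermis, were not called, at 0.19 and 0.15.

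**Figure D2:**
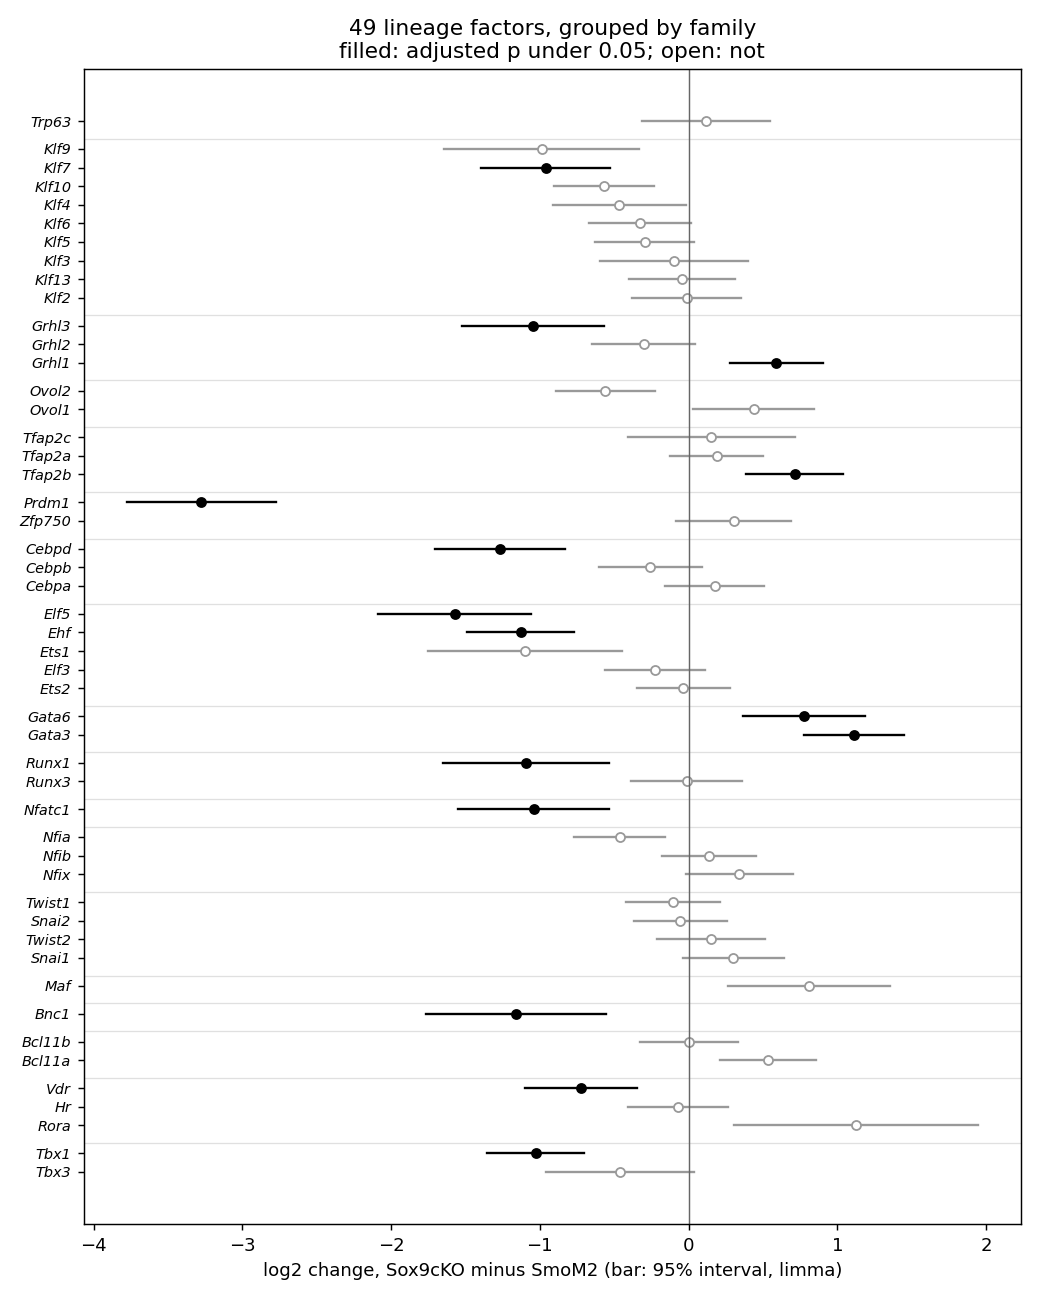
Log2 change of Sox9cKO minus SmoM2 for each of the 49 measured members, grouped by family, with the 95% interval from limma. Filled points passed the test, and the KLF and ETS families have no point above 0, while the GATA and AP-2 families have none below it. These signs are those of the brightest probe set. Averaged over probe sets, Klf5, Klf13 and Ets2 were at 0.03, 0.05 and 0.06. Without SmoM2 replicate 1, Tfap2c was at -0.21.

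The GATA factors both rose. Gata3, a determinant of the inner root sheath of the hair follicle that also acts in epidermal barrier formation, had 10.43 and 10.57 in Sox9cKO and 9.47 and 9.30 in SmoM2, a log2 change of 1.11 (SE 0.14, adjusted p = 0.00486). Its replicates lay close together in both genotypes, and its change was between 1.03 and 1.20 with any array left out. Most genes of a list of inner root sheath and cortex markers moved with it, but not Krt27 and Krt35. These were at 0.72 and 0.08 and were not called (adjusted p = 0.123 and 0.753, limma). Of 8 measured, 6 rose (Krt25, Krt28, Krt71, Krt73, Tchh and Msx2) and 0 fell, and the list averaged 7.16 and 6.79 in Sox9cKO against 5.36 and 5.14 in SmoM2. Krt75, a keratin of the companion layer, rose by 5.22. The part of such cells in the Gata3 difference was not tested. Gata3 is a T cell factor too. The 5 measured T cell markers averaged 4.47 and 4.57 in Sox9cKO and 4.36 and 4.41 in SmoM2. Of these markers, 0 were called by limma and 0 had an unadjusted p under 0.05. They were dim, and the listed markers Lck and Trdc were not measured. The part of T cells in the Gata3 difference was not tested.

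Gata6, known in mouse skin from the sebaceous duct and upper hair follicle, had 6.98 and 7.28 in Sox9cKO and 6.52 and 6.19 in SmoM2. Its log2 change was 0.78 (SE 0.18, adjusted p = 0.0481 over genes and 0.0725 over all probe sets, limma). Its other probe sets changed by 0.19 and 0.11 without passing, and averaged over all 3 its change was 0.36 (adjusted p = 0.317). With any array left out the adjusted p lay between 0.0535 and 0.228.

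**Figure D3:**
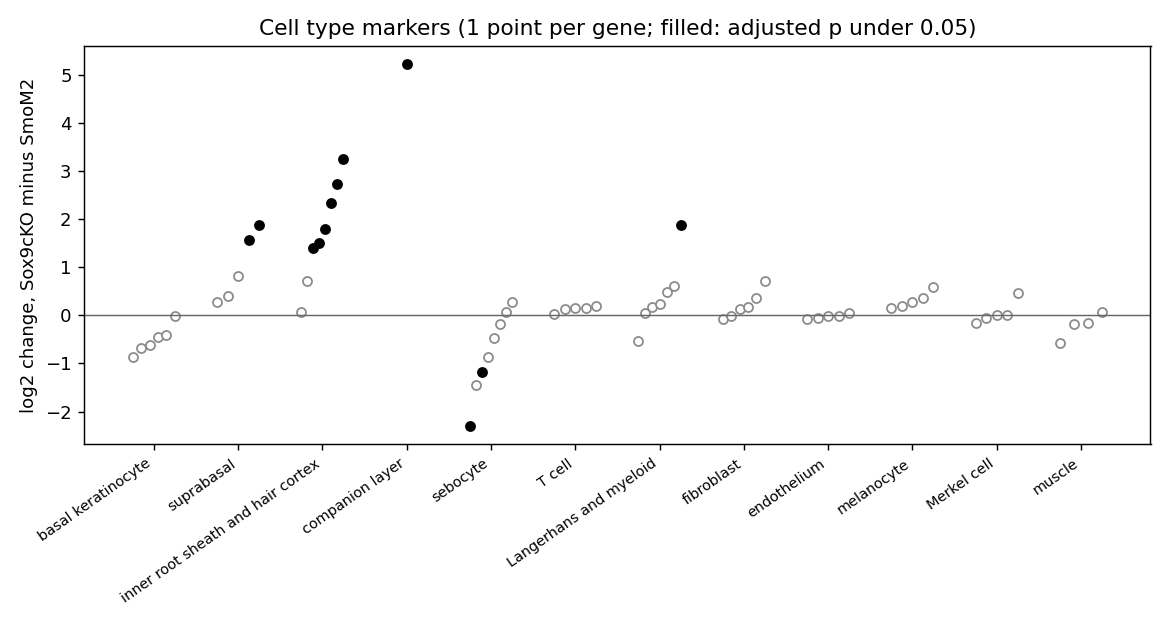
Log2 change of Sox9cKO minus SmoM2 for markers of the sorted cell type and of other cell types, with 1 point per gene and filled points for those that passed the test. Inner root sheath, companion layer and suprabasal lists hold the points that rose, joined by 1 myeloid gene (H2-Aa, 1.87), and sebocyte genes are those that fell.

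Tbx1, Runx1 and Nfatc1, which act in bulge stem cells, each fell. Nfib and Nfix, also genes of hair follicle stem cells, had changes of 0.14 and 0.34 and were not called. The cells were sorted without surface CD34 and labelled as interfollicular, and the part of bulge cells in these differences was not tested. Tbx1, a T-box factor linked to the self-renewal of hair follicle stem cells in the mouse, had 8.49 and 8.31 in Sox9cKO and 9.45 and 9.41 in SmoM2 (log2 change -1.03, SE 0.14, adjusted p = 0.00615, or 0.0509 without SmoM2 replicate 1). Runx1, which promotes the activation of these stem cells, had 8.76 and 8.01 in Sox9cKO and 9.55 and 9.41 in SmoM2. The Sox9cKO replicates of Runx1 stood further apart than the SmoM2 replicates, and its change was -1.09 (SE 0.24, adjusted p = 0.0430). The adjusted p of Runx1 was 0.216, 0.163 or 0.0848 without SmoM2 replicate 1, SmoM2 replicate 2 or Sox9cKO replicate 2. Averaged over its 6 probe sets, the change was -0.69 (adjusted p = 0.0617). Adjusted over all probe sets, the standing one did not pass (adjusted p = 0.0639, limma). A dimmer Runx1 probe set did (-1.06, adjusted p = 0.0319 over all probe sets).

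Nfatc1, which keeps bulge stem cells quiescent, had 8.50 and 9.10 in Sox9cKO and 9.73 and 9.95 in SmoM2 at its standing probe set (log2 change -1.04, SE 0.21, adjusted p = 0.0344 over genes and 0.0529 over all probe sets). The adjusted p over genes was 0.114, 0.195 or 0.0884 without SmoM2 replicate 1, SmoM2 replicate 2 or Sox9cKO replicate 1. Dimmer probe sets of Nfatc1 gave larger differences. The third brightest read 7.88 and 8.01 in Sox9cKO against 9.56 and 9.37 in SmoM2 (-1.52, adjusted p = 0.00305 over all probe sets), and the fourth read 5.16 and 5.58 in Sox9cKO against 7.68 and 7.10 in SmoM2 (-2.01, adjusted p = 0.00565 over all probe sets). Both SmoM2 arrays were above both Sox9cKO arrays at 4 of its 5 probe sets, the exception being the second brightest (-0.75).

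Vdr, the vitamin D receptor gene, fell, at 9.19 and 9.54 in Sox9cKO and 10.06 and 10.11 in SmoM2 (log2 change -0.72, SE 0.16, adjusted p = 0.0451). Its second probe set gave -0.69, and its adjusted p was 0.166, 0.199 or 0.177 without SmoM2 replicate 1, SmoM2 replicate 2 or Sox9cKO replicate 1, and 0.0687 over all probe sets. Hr, the corepressor that binds the vitamin D receptor, changed by -0.07 (adjusted p = 0.867). Rora, an orphan nuclear receptor gene linked to differentiation of human keratinocytes, had 7.77 and 8.98 in Sox9cKO and 7.15 and 7.34 in SmoM2. The Sox9cKO replicates were far apart, and the change of 1.12 did not pass (SE 0.35, adjusted p = 0.134), and the change was 1.73 without Sox9cKO replicate 1 (adjusted p = 0.00268) and 0.52 without Sox9cKO replicate 2 (adjusted p = 0.238). Rora did not pass without either SmoM2 array (adjusted p = 0.425 and 0.310). All 9 Rora probe sets had both Sox9cKO arrays above both SmoM2 arrays, and 1 passed, at 6.27 and 6.55 in Sox9cKO against 5.51 and 5.06 in SmoM2 (1.12, adjusted p = 0.0265 over all probe sets).

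**Figure D4:**
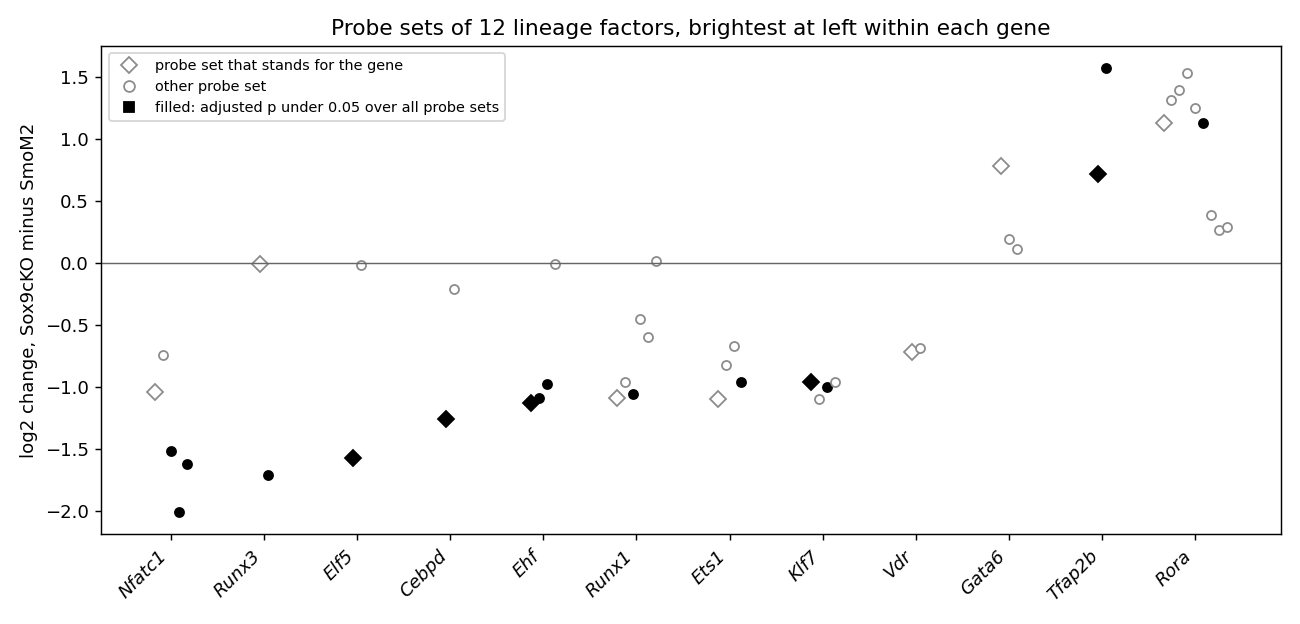
Log2 change of Sox9cKO minus SmoM2 at every probe set of 12 members, brightest at left within a gene, with the standing probe set as a diamond and filled symbols for those that passed over all probe sets. Nfatc1 runs from -0.75 to -2.01, Runx3 from -0.01 to -1.71, and the Rora probe sets all lie above 0.

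Over all probe sets, 20 of the 152 of these factors were called (16 lower and 4 higher), 13.2% against 3.82% of all probe sets. The 15 called members had 21 further probe sets, of which 20 had the sign of the standing one and 8 of those were called, while the exception, the dimmest of Runx1, changed by 0.02. Probe sets of a gene share its transcripts and are not replicates. In Ets1, Rora and Runx3, which were not called over genes, a probe set other than the standing one was called. Runx1 and Nfatc1 were called over genes. Over all probe sets their standing probe sets were not called, while dimmer ones were. Runx3 is a factor of skin development and of T cells. Its brightest probe set read 5.10 and 5.04 in Sox9cKO and 5.25 and 4.91 in SmoM2 (-0.01), whereas the dimmer one read 3.99 and 3.82 in Sox9cKO against 5.68 and 5.55 in SmoM2 (-1.71, adjusted p = 0.00198 over all probe sets). Averaged over both probe sets, Runx3 was called (-0.86, adjusted p = 0.0171). Both Runx3 probe sets were dim, and the transcript that each reads was not known.

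Among the 9 KLF genes, zinc finger factors that bind GC-rich and CACCC elements, all had log2 changes below 0 at their brightest probe set. Of all 18193 genes, 8419 had a change below 0. Averaged over probe sets, Klf5 and Klf13 were at 0.03 and 0.05. Without Sox9cKO replicate 1, Klf3 and Klf2 were at 0.17 and 0.10. Klf7 was the only KLF gene called. Klf7 had 8.77 and 8.51 in Sox9cKO and 9.39 and 9.81 in SmoM2 (log2 change -0.96, SE 0.18, adjusted p = 0.0259), and its 3 other probe sets gave -0.97 to -1.10. The adjusted p of Klf7 was 0.137 without SmoM2 replicate 2 and 0.10 without Sox9cKO replicate 2. Klf9, a glucocorticoid-responsive factor, had a change of similar size that did not pass (-0.99, SE 0.28, adjusted p = 0.10), with 8.04 and 8.96 in Sox9cKO against 9.44 and 9.54 in SmoM2. The change of Klf9 was -1.45 without Sox9cKO replicate 2 (adjusted p = 0.00490) and -0.52 without Sox9cKO replicate 1 (adjusted p = 0.205), and it did not pass without either SmoM2 array (adjusted p = 0.292 and 0.328). Klf10, a TGF-beta-induced gene, came nearest to the threshold of those not called, at -0.57 (adjusted p = 0.0673). Klf5, Klf6 and Klf3 were at -0.29, -0.33 and -0.10, and Klf13 and Klf2 at -0.04 and -0.01.

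None of the SNAI and TWIST genes, which regulate epithelial-mesenchymal transition, was called by limma. Snai2, which is expressed in basal keratinocytes, was bright and nearly the same in both genotypes, at 11.08 and 10.99 in Sox9cKO and 11.08 and 11.10 in SmoM2 (log2 change -0.06, 95% interval -0.37 to 0.26). Snai1, Twist1 and Twist2 were dim on all 4 arrays, with means between 3.85 and 4.57, and changed by 0.30, -0.11 and 0.15. All unadjusted p of these 4 genes were 0.0735 or higher. TWIST factors also mark fibroblasts. The 6 fibroblast markers averaged 4.46 and 4.54 in Sox9cKO and 4.35 and 4.24 in SmoM2. Of these markers, 0 were called by limma and 1 had an unadjusted p under 0.05. The part of fibroblasts in the TWIST signal was not tested.

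Of the remaining members, Maf, which takes part in the late differentiation of human keratinocytes, changed by 0.81 (SE 0.23, adjusted p = 0.104), at 10.63 and 11.25 in Sox9cKO against 9.94 and 10.32 in SmoM2. The change of Maf was 1.12 without Sox9cKO replicate 1 (adjusted p = 0.0315) and 0.51 without Sox9cKO replicate 2 (adjusted p = 0.339), and it did not pass without either SmoM2 array (adjusted p = 0.415 and 0.168). Bcl11a and Bcl11b, zinc finger factors of skin and lymphocyte development, were at 0.53 (adjusted p = 0.0727) and 0.00. Nfib and Nfix, nuclear factor I genes of hair follicle stem cells, were at 0.14 and 0.34, and Nfia was at -0.46 (adjusted p = 0.10). Tbx3 changed by -0.46 (adjusted p = 0.326). Arrays of the genotypes did not overlap for 24 of the 34 members that were not called. Over all 49 members that share was 79.6%, against 47.9% of all genes.

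Genes known to act with or downstream of these factors were read in the same fit, from 4 lists chosen with earlier results of these data known. Of 20 epidermal differentiation genes, 5 rose and 1 fell, 30% against 6.19% of all genes, with a median log2 change of 0.18. Tgm5 and Tgm3, transglutaminases that cross-link the cornified envelope, rose by 1.77 and 1.23, loricrin (Lor) by 1.56, filaggrin (Flg) by 1.82 and Dsg1a by 1.87. Cnfn, the gene of the envelope protein cornifelin, fell by 1.88. The early differentiation keratins Krt1 and Krt10 changed by 0.28 and 0.40 without passing, and Tgm1, a target of Grhl3 in mouse epidermis, by -0.61 (adjusted p = 0.136). Of 5 suprabasal markers, 2 rose, and that list averaged 10.51 and 10.66 in Sox9cKO and 9.81 and 9.39 in SmoM2. The part of suprabasal cells in the differences of Grhl1, Grhl3 and the other differentiation factors was not tested. The number of the 20 genes that rose was 4 without either SmoM2 array and 5 without either Sox9cKO array. Without SmoM2 replicate 1, 2 of them fell, and without SmoM2 replicate 2, 0 fell (limma).

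Of 12 measured p63 partner and target genes, 2 were called (16.7%, against 6.19% of all genes). Fgfr2, a receptor for keratinocyte growth factors, rose by 1.31 (adjusted p = 0.00819). The basement membrane gene Fras1 fell by 1.35 (adjusted p = 0.00462), and the other 10 were not called. None rose without SmoM2 replicate 1 (limma), and 2 rose without Sox9cKO replicate 1. Krt5 and Krt14, the basal keratins, were at 0.00 and -0.41. Of 15 genes of the epithelial or mesenchymal state (6.67% called, against 6.19% of all genes), 1 fell and 0 rose. That gene was Epcam, an epithelial adhesion molecule, which fell by 1.43 (adjusted p = 0.00294), while E-cadherin (Cdh1) was at -0.19, Vim at -0.21, Zeb1 at -0.06 and Zeb2 at -0.22. Of 19 partners of the member factors (5.26% called, against 6.19% of all genes), 1 rose and 0 fell. It was Tcf4, an E-protein gene, at 0.66 (adjusted p = 0.0301), and it was not called with any array left out. Without SmoM2 replicate 1, 1 of the 19 partners fell. Cbfb, the obligate partner of RUNX factors, was at 0.01, and Rxra, the retinoid X receptor that pairs with the vitamin D receptor, at -0.21.

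**Figure D5:**
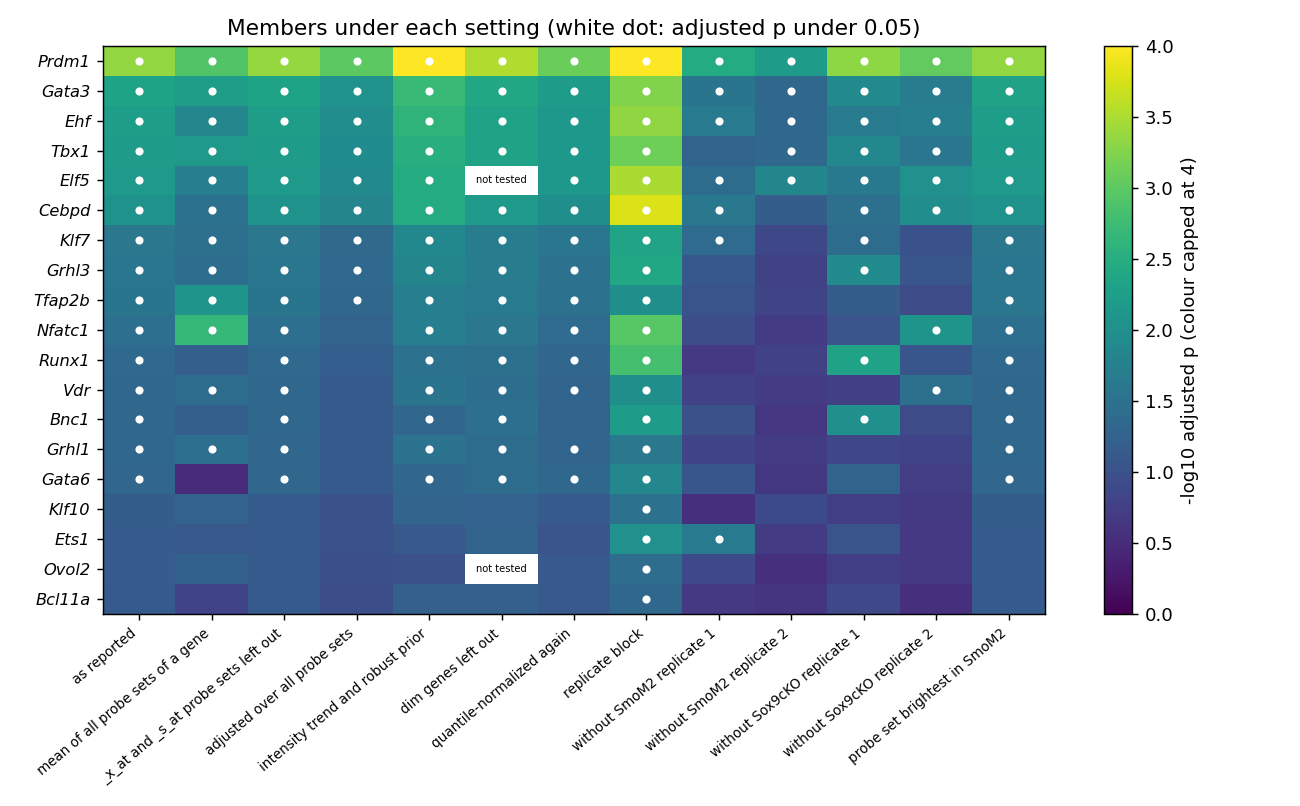
Adjusted p of the 15 called members and of the 4 members next to the threshold under the reported setting and 12 alternatives, as colour on a -log10 scale, with a white dot where it was under 0.05. Prdm1, Gata3 and Ehf have a dot in every column and Elf5 in every column where it was tested.

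The members next to the threshold were Gata6, Grhl1, Bnc1 and Vdr on the called side, with adjusted p between 0.0451 and 0.0481, and Klf10, Ets1, Ovol2 and Bcl11a on the other, between 0.0673 and 0.0727. Since 2 arrays against 2 allow no exact permutation p below 0.333 for 1 gene, the calls depend on the variance that limma pools over genes.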

How the data were processed

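Gene expression was measured on 4 Affymetrix arrays, 2 Sox9cKO and 2 SmoM2, from 100 ng of total RNA each, per the labels' protocols. The authors deposited a log2 signal for each probe set on each array. How they normalized and summarised probes is not stated in the sources used here; per the submitters' processing notes, R 2.14.0 was among the tools. Array medians lay between 5.45 and 5.47, so a change shared by most genes would not be seen.

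Of 45101 probe sets, 64 were controls, 34945 had 1 gene symbol in the platform annotation, 932 had several and 9160 were unlisted. Only those with 1 symbol entered the gene tests. The test of Sox9cKO against SmoM2 was two-sided, without covariates, and used limma 3.58.1 (eBayes after lmFit, R 4.3.3) over 18193 genes, and separately over 45037 probe sets. The members and lists were chosen with earlier results of these data known. Every member is accounted for, with values on every array for those called, for those 2-fold apart without overlap, and for those with another called probe set. Of the other genes, up to 5 called members of each list and the sort markers are named, with further ones chosen after their values were seen. The procedure was tested on simulated data. These followed limma's own fitted variance prior with independent arrays, so they cannot show how it performs where real data depart from that. Alternatives covered the choice of probe set, the prior, a filter on dim genes, re-normalization, a replicate block and each array left out.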

Additional observations from a re-analysis of the deposited data

How the results depend on the processing

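The count of called members, 15 as reported (4 higher and 11 lower), was 9 (2 higher and 7 lower) when p-values were adjusted over all 45037 probe sets. Of all probe sets, 3.82% were called then. Without 1 array it ranged from 5 to 12 (1 to 3 higher and 4 to 9 lower). In those fits the lone array is assumed to vary like the other genotype, and fewer samples were fitted. With the replicate number as a block it was 22 (7 higher and 15 lower), while 10.5% of all genes were called. Deviations of equally numbered arrays from their genotype means correlated at 0.09 across all genes and 0.17 across brighter genes. With 2 pairs and no label that ties a number to a litter or day, the numbers were not taken as pairs. The other alternatives (mean of probe sets, probe sets with the suffixes _x_at and _s_at left out, intensity trend with robust prior, dim genes left out, re-normalization, and the probe set brightest in SmoM2, the last added after seeing the data) gave 13 to 16 called members. The share of all tested genes called under them ran from 5.58% with the mean of probe sets to 8.81% with dim genes left out. Members separated at 2-fold, 12 as reported, ranged from 7 to 14 without 1 array, and the median log2 change from -0.20 to -0.12. No called member changed sign under any alternative run. Signal near the lower quartile limits the size of changes of Elf5, Runx3, Snai1, Twist1 and Twist2.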
